A study of Sus scrofa with 16 samples.

Results

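The genes described here are the cyclins, cyclin-dependent kinases (CDKs), mitotic kinases, centromere proteins, kinesins and centrosome proteins measured in the left ventricle of exercise-trained and sedentary pigs. They were chosen by name: a platform gene symbol starting with CCNA, CCNB, CCND, CCNE, CDK, CDC2, CDCA, AURK, CENP, BUB, PLK, KIF or CEP, or equal to PTTG1, TOP2A, BIRC5, CKS1B, CKS2 or MKI67. By that rule 65 of 6790 named genes were members, on 81 probe sets, and each gene was read on its brightest probe set. RNA came from frozen left ventricular myocardium of 16 Yorkshire x Landrace swine aged 2 to 3 months, 1 array per animal, 4 to 5 weeks after the exercise or sedentary protocol began. The exercised group held 8 animals and the sedentary group 8, each with 4 females and 4 neutered males, here called castrated males. Both groups were the same cross and age, and no male was intact. The type and intensity of the exercise are not given in the sources used here. The series title concerns physiological hypertrophy of the left ventricle, and the comparison asks which transcripts differ between trained and untrained hearts.

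A dividing cell passes through growth, DNA synthesis and mitosis under kinases that work only when bound to a cyclin, and inhibitor proteins hold those kinases back. In mitosis the centromere proteins tie each chromosome to the spindle, Aurora and Polo kinases and the spindle checkpoint watch that attachment, and the anaphase-promoting complex then destroys cyclin B and securin so that the sister chromatids part. Heart muscle cells largely leave this cycle after birth, while the vessel lining, connective tissue and blood-borne cells of the ventricle can still divide. How far the muscle cells of these young animals had left it was not measured. The name rule also takes in proteins with other work, such as kinesins that carry cargo along microtubules and CDKs that act in transcription. A narrower list of 54 genes that act in division itself was therefore followed apart, here called the division core, of which 21 were measured. The others of that list, MKI67 and CDK1 among them, are not analysed here. The remaining 44 members are the regulators, carriers and name-alikes.

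Values are log2 signals, so a difference of 1 is a doubling, and a difference always means exercised minus sedentary. The 11 arrays with high signal from the spiked bacterial poly-A controls (7.22 to 8.20 on average) held exercised 1 to 6 and sedentary 1 to 5. The 5 arrays with low signal (5.81 to 6.31) held exercised 7 and 8 and sedentary 6, 7 and 8. The labels do not name these sets, and the low set held 1 female, sedentary 8. The correlation of an array with the average of the rest was 0.988 to 0.994. The markers of heart muscle cells were the brightest of the cell type lists, at a mean signal of 13.9 in exercised and 13.8 in sedentary animals. The members lay between 3.90 for CEP55 and 10.77 for CDK2AP1, a CDK2-associated protein. With 8 arrays a group, the array number and the spread of each gene between animals set how precisely its difference is known.

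In trained hearts the CDK inhibitor CDKN2B, the CDK-activating kinase CDK7, the centrosome protein CEP85, the survival and chromosome passenger protein BIRC5 and the microtubule motor KIF21A were higher. The centromere protein CENPI and the mitotic phosphatase CDC25C were lower. These 7 of 65 genes (10.8%) passed an adjusted p of 0.05 in limma, against 10.0% of all named genes. The 5 higher genes were 7.69% of the members, against 5.11% of all named genes, and the 2 lower genes were 3.08%, against 4.90%. The share called was therefore close to the background. Of the 12 members at or below the 40th percentile of signal, 5.57, 4 were called (CDKN2B, CENPI, CDC25C and KIF21A), against 24.3% of all named genes at such levels. Above it 3 of 53 were called, against 6.58%. CDKN2B and CENPI were the 2 members (3.08%) whose exercised and sedentary arrays did not overlap, against 2.22% of all named genes.

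Small differences leaned upward. The difference was above 0 for 45 of 65 members (69.2%), against 53.1% of all named genes, and for 17 of the 21 core genes. At an unadjusted p under 0.05, 18 members were higher (27.7%, against 12.3%) and 3 were lower (4.62%, against 10.5%). The median difference was 0.21 for the division core and 0.05 for the other members, beside 0.01 over all named genes. Without sedentary 6, 7 and 8, which are described further on, the core median was 0.07.

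**Figure D1:**
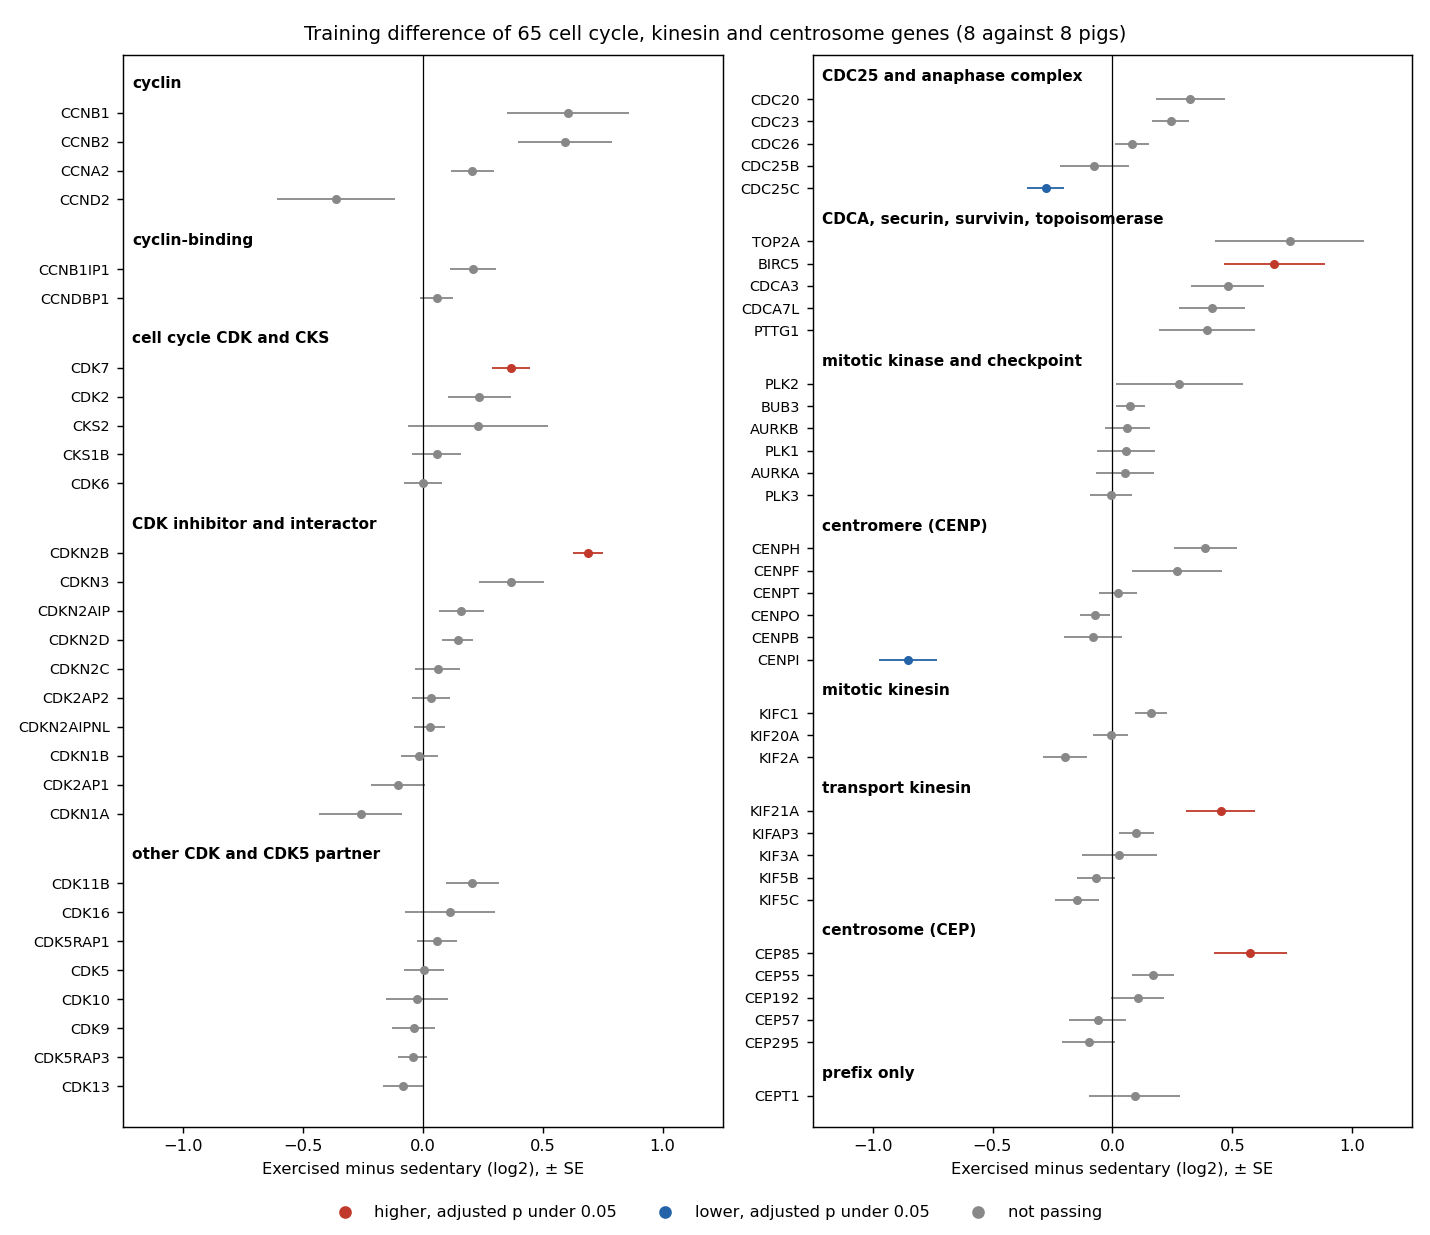
Difference between exercised and sedentary animals (log2, horizontal axis) for each of the 65 members, grouped by role; bars are 1 SE from limma over 8 and 8 animals. Red points passed an adjusted p of 0.05 as higher and blue points as lower; TOP2A and CCNB1 lie far to the right at 0.74 and 0.61 with wide bars and did not pass.

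The clearest member was a brake on the cycle. CDKN2B encodes p15, an inhibitor of the kinases CDK4 and CDK6 that open the way to DNA synthesis. Its signal had a lowest, median and highest value of 4.63, 4.71 and 4.87 in exercised and 3.87, 4.02 and 4.22 in sedentary animals. Every exercised array lay above every sedentary one. The means were 4.74 ± 0.09 and 4.05 ± 0.12 (SD, n = 8), a rise of 0.69 (SE 0.0629), or 1.61-fold (limma adjusted p = 1.38e-05). It was 0.76 higher among the high poly-A arrays and 0.56 higher among the low ones, and it passed in all 16 fits that left out 1 array, at 0.67 to 0.72. CDKN2B is a dim probe set, at the 22.5th percentile of level.

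None of the other 9 CDK inhibitors and interactors passed. CDKN3, a phosphatase that acts on CDK2, was 7.62 ± 0.36 in exercised and 7.25 ± 0.23 in sedentary animals (difference 0.37, adjusted p = 0.085). CDKN1A, which encodes p21 and is induced by p53, was 8.78 ± 0.40 and 9.04 ± 0.37, with a difference of -0.26 (95% interval -0.62 to 0.11). CDKN1B, encoding p27, an inhibitor typical of cells at rest, was 9.26 ± 0.16 and 9.27 ± 0.12, a difference of -0.01 (95% interval -0.18 to 0.15). The other measured inhibitors of the CDKN2B family, CDKN2C and CDKN2D, differed by 0.06 and 0.15. CDKN2AIP and CDKN2AIPNL, a protein that binds the tumour suppressor ARF and its relative, differed by 0.16 and 0.03, and CDK2AP1 and CDK2AP2 by -0.10 and 0.03. Of the inhibitors measured, only CDKN2B thus passed, and whether it differs from the others was not tested.

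Among the cell cycle kinases and their adaptors, CDK7 rose. CDK7 activates other CDKs by phosphorylation and is also a subunit of the transcription factor TFIIH. Its lowest, median and highest signals were 6.20, 6.37 and 6.65 in exercised and 5.70, 5.99 and 6.31 in sedentary animals. All 8 exercised arrays lay above the sedentary mean, and the groups overlapped only at their edges. The means of 6.38 ± 0.15 and 6.01 ± 0.20 differed by 0.37 (SE 0.0789, limma adjusted p = 0.00608). The difference was 0.33 in the high and 0.35 in the low poly-A arrays, and it passed in all 16 fits without 1 array. CDK2, which works with cyclins E and A in DNA synthesis, was 7.06 ± 0.18 and 6.82 ± 0.34 (difference 0.24, adjusted p = 0.268). A dimmer CDK2 probe set went the other way, at -0.23 (adjusted p = 0.0379), so the probe sets of CDK2 disagree. CDK6, a partner of the D cyclins, was 8.92 ± 0.16 and 8.91 ± 0.15 (difference 0.00, 95% interval -0.17 to 0.17). CKS1B and CKS2, small adaptors that hold CDKs to their substrates, differed by 0.06 and 0.23 and did not pass.

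The B cyclins, which drive entry into mitosis with CDK1, were higher on average in exercised animals and did not pass. CCNB1 had a lowest, median and highest signal of 5.73, 6.78 and 7.38 in exercised and 4.89, 6.25 and 7.33 in sedentary animals. The highest values of the groups were nearly equal, and the sedentary group reached further down. The means were 6.75 ± 0.52 and 6.14 ± 0.87, a difference of 0.61 (SE 0.256, adjusted p = 0.137). CCNB2 was 5.35 ± 0.48 and 4.75 ± 0.50 (difference 0.59, SE 0.195, adjusted p = 0.0556). CCNA2, the cyclin of DNA synthesis and early mitosis, was 4.52 ± 0.09 and 4.31 ± 0.23 (difference 0.21, adjusted p = 0.148). CCND2, a D cyclin that answers growth signals, was much brighter than these probe sets are, at 9.80 ± 0.53 and 10.16 ± 0.67. Its difference was -0.36 (95% interval -0.88 to 0.16, adjusted p = 0.383). The cyclin-binding genes CCNB1IP1 and CCNDBP1 differed by 0.21 and 0.06 and did not pass.

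Of the phosphatases and anaphase-complex genes, CDC25C fell. CDC25C removes the inhibitory phosphates from CDK1 at the start of mitosis. Its lowest, median and highest signals were 4.27, 4.39 and 4.58 in exercised and 4.49, 4.75 and 4.90 in sedentary animals. All 8 exercised arrays lay below the sedentary mean. The means of 4.42 ± 0.11 and 4.70 ± 0.17 differed by -0.28 (SE 0.0761, limma adjusted p = 0.0244), with -0.32 and -0.19 in the high and low poly-A arrays. The call held in 12 of 16 fits without 1 array and was lost without exercised 1, exercised 2, sedentary 3 or sedentary 4. Its relative CDC25B was 7.76 ± 0.34 and 7.84 ± 0.26 (difference -0.08, 95% interval -0.38 to 0.23). CDC20, which switches on the anaphase-promoting complex, differed by 0.32 (adjusted p = 0.16), and its subunits CDC23 and CDC26 by 0.24 (adjusted p = 0.0521) and 0.08.

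None of the 6 mitotic kinase and checkpoint genes passed. AURKA, the kinase of the spindle poles, was 5.50 ± 0.29 in exercised and 5.45 ± 0.32 in sedentary animals on its brightest probe set (difference 0.05, 95% interval -0.20 to 0.31). Its second, dimmer probe set was higher by 0.38 (adjusted p = 0.00644), and the difference between the probe sets was not tested. AURKB, the kinase of the chromosome passenger complex, differed by 0.06 (95% interval -0.14 to 0.26), and PLK1, which acts throughout mitosis, by 0.06 (95% interval -0.20 to 0.31). BUB3, a spindle checkpoint protein, had the smallest spread of all members over the 16 arrays, an SD of 0.101. It differed by 0.07 (95% interval -0.05 to 0.20). PLK2, a stress-induced Polo kinase, was 8.03 ± 0.74 and 7.75 ± 0.63, and its difference of 0.28 had an interval of -0.28 to 0.84. PLK3 differed by 0.00.

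CENPI fell the furthest of the members. It belongs to the inner kinetochore, the protein layer that sits on centromeric chromatin for the whole cycle. Its lowest, median and highest signals were 4.50, 4.96 and 5.12 in exercised and 5.37, 5.68 and 6.29 in sedentary animals. Every exercised array lay below every sedentary one. The means of 4.92 ± 0.19 and 5.77 ± 0.32 differed by -0.85 (SE 0.121), or 1.80-fold (limma adjusted p = 0.000361). The difference was -0.95 and -0.77 in the high and low poly-A arrays, and it passed in all 16 fits without 1 array, at -0.90 to -0.77.

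None of the other 5 centromere genes passed. CENPH, which joins CENPI in the same inner layer, was 6.00 ± 0.13 in exercised and 5.61 ± 0.40 in sedentary animals (difference 0.39, adjusted p = 0.0653). CENPF, a large outer protein that appears late in the cycle, was 6.33 ± 0.24 and 6.06 ± 0.59 (difference 0.27, adjusted p = 0.398). CENPT and CENPO, also of the inner layer, differed by 0.02 and -0.07. CENPB, which binds centromeric repeats, differed by -0.08.

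TOP2A, CDCA3, PTTG1, CDCA7L and BIRC5 all had differences of 0.39 or more, and only BIRC5 passed. TOP2A, the topoisomerase that untangles chromosomes before they part, had a lowest, median and highest signal of 7.20, 8.20 and 8.93 in exercised and 6.20, 7.76 and 8.32 in sedentary animals. The groups overlapped over most of their range, and the lowest arrays were sedentary. The means of 8.12 ± 0.50 and 7.38 ± 0.90 differed by 0.74 (SE 0.312, adjusted p = 0.138), and its SD over 16 arrays, 0.799, was the highest of the members.

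BIRC5, or survivin, guides AURKB to centromeres and also blocks cell death. Its lowest, median and highest signals were 5.23, 6.35 and 6.60 in exercised and 4.90, 5.56 and 6.39 in sedentary animals. The lowest exercised array, exercised 5, lay within the lower part of the sedentary range. The means of 6.20 ± 0.47 and 5.53 ± 0.53 differed by 0.67 (SE 0.212, limma adjusted p = 0.0459). The call held in 4 of 16 fits without 1 array, those without exercised 5, exercised 6, sedentary 1 or sedentary 3. Without sedentary 6, 7 and 8 the difference was 0.40 (adjusted p = 0.235), an alternative added with the data already in view. PTTG1, the securin that keeps sister chromatids joined, differed by 0.39 (adjusted p = 0.228). CDCA3, which helps remove an inhibitor of mitotic entry, differed by 0.48 (adjusted p = 0.0508), and CDCA7L, a partner of MYC, by 0.41 (adjusted p = 0.0594).

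Among the kinesins, KIF21A, a motor that moves to growing microtubule ends, rose. Its lowest, median and highest signals were 4.93, 5.79 and 5.98 in exercised and 4.80, 5.17 and 5.67 in sedentary animals. Exercised 4 lay among the lowest arrays, the other 7 exercised animals lay above the sedentary mean, and the groups overlapped. The means of 5.69 ± 0.35 and 5.24 ± 0.37 differed by 0.45 (SE 0.144, limma adjusted p = 0.0497). The call held in 3 of 16 fits without 1 array, those without exercised 4, sedentary 7 or sedentary 8. The cargo motors of the kinesin-1 type, KIF5B and KIF5C, differed by -0.07 and -0.15, and KIF3A and KIFAP3 of the kinesin-2 complex by 0.03 and 0.10. KIF20A, needed for the final separation of cells, was 5.84 ± 0.15 and 5.84 ± 0.10 (95% interval of the difference -0.16 to 0.14). KIFC1, a motor that focuses spindle poles, differed by 0.16 (adjusted p = 0.136). KIF2A, which takes microtubules apart at their ends, was 6.27 ± 0.13 and 6.46 ± 0.22 (difference -0.20, adjusted p = 0.177), and all 8 exercised arrays lay below the sedentary mean.

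CEP85, a centrosome protein that restrains the separation of centrosomes, rose and was the brightest of the called members. Its lowest, median and highest signals were 9.98, 10.24 and 10.53 in exercised and 8.80, 9.73 and 10.24 in sedentary animals. The exercised arrays were tightly grouped above the sedentary mean, and the sedentary ones were spread wide. The means of 10.22 ± 0.17 and 9.65 ± 0.42 differed by 0.57 (SE 0.153, limma adjusted p = 0.0215), and a second CEP85 probe set gave 0.53 (adjusted p = 0.0381). The difference was 0.81 in the high and 0.12 in the low poly-A arrays, and it passed in all 16 fits without 1 array. The other centrosome genes did not pass. CEP55, which acts when daughter cells are cut apart, differed by 0.17 (adjusted p = 0.234). CEP192 and CEP295, which build centrioles, differed by 0.11 and -0.10, and CEP57 by -0.06. CEPT1, a phospholipid-making enzyme that the rule took in by its first letters alone, differed by 0.09.

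**Figure D2:**
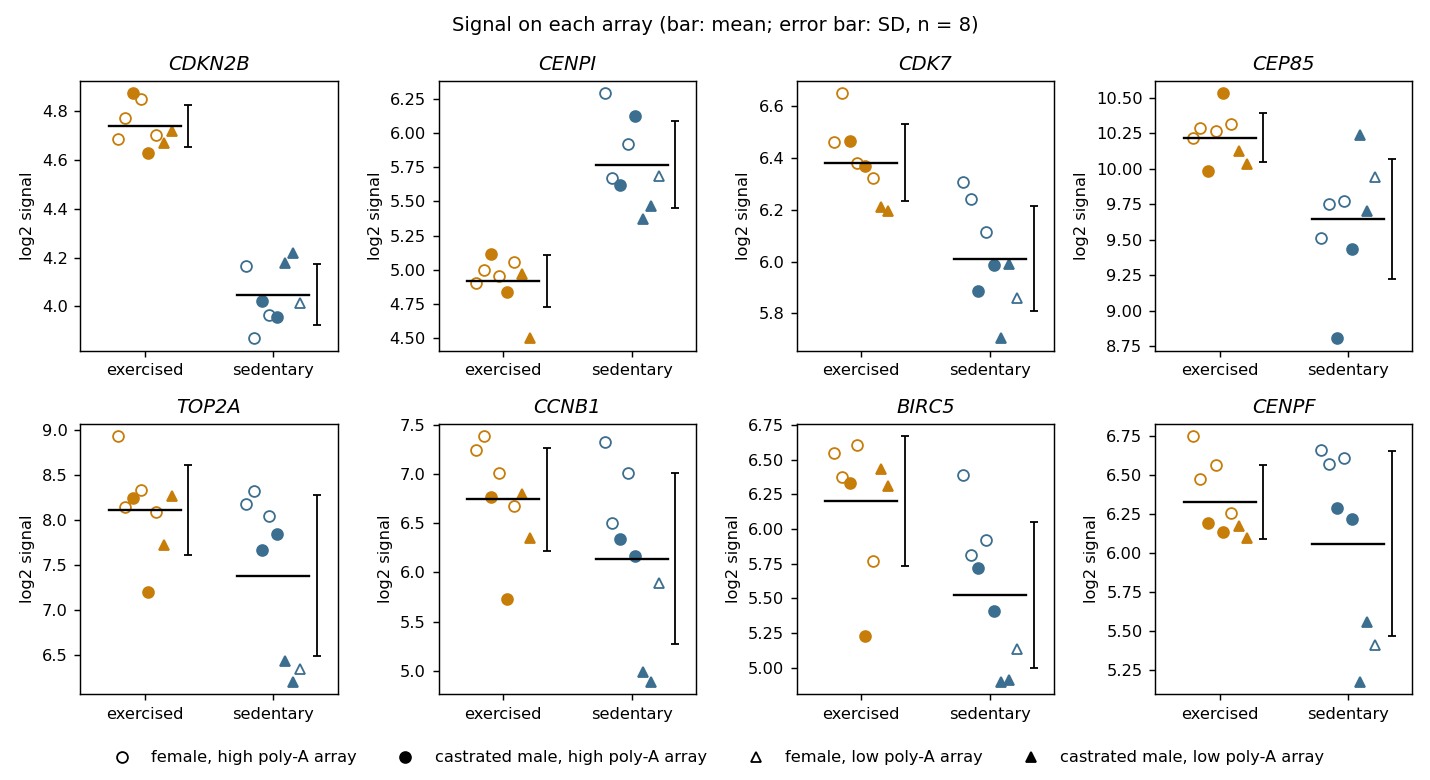
Signal (log2, vertical axis) of 8 members on each of the 16 arrays; bars are group means and error bars SD (n = 8), open points females, filled points castrated males, and triangles the low poly-A arrays. The groups are separate for CDKN2B and CENPI, while for TOP2A and CENPF the 3 sedentary triangles lie below all other arrays.

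The CDKs that act mainly outside the cell cycle and the CDK5 partners came next. Among CDK5, CDK9, CDK10, CDK11B, CDK13, CDK16, CDK5RAP1 and CDK5RAP3 none passed. The largest difference was 0.21 for CDK11B, a kinase of transcription and splicing (7.91 ± 0.17 and 7.70 ± 0.27, adjusted p = 0.247). CDK9, the kinase that releases paused RNA polymerase, differed by -0.04, CDK13, which acts in transcript elongation, by -0.08, and CDK5, best known from neurons, by 0.01. CDK16 differed by 0.11, while a dimmer probe set gave -0.22 (unadjusted p = 0.0222, adjusted p = 0.11). CDK5RAP1, a tRNA-modifying enzyme, differed by 0.06. CDK5RAP3, a cofactor of protein UFMylation, differed by -0.04 on its brightest probe set and by 0.38 on a second (adjusted p = 0.00097). Of the 11 members with several probe sets, CDK2, CDK16 and CDK5RAP3 thus had a dimmer probe set whose difference had the other sign with an unadjusted p under 0.05.

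The low end of the division core was held by 3 sedentary animals. As the mean deviation from each gene's average over 16 arrays, the core stood at -0.51 in sedentary 6, -0.51 in sedentary 7 and -0.34 in sedentary 8. Sedentary 1 to 5 lay between -0.08 and 0.30, and the exercised animals between -0.26 (exercised 5) and 0.35 (exercised 1). Sedentary 1 to 5 therefore lay within the exercised range. Sedentary 6, 7 and 8 held the lowest value of 13 of the 21 core genes, a count with no share over all named genes beside it. They were the 3 lowest arrays for 8 of 65 members (12.3%), against 2.84% of all named genes. These members were TOP2A, CENPF, CKS2, BIRC5, CCNA2, CDC20, CDCA3 and CDK2, all but CDK2 in the core. The other 44 members averaged -0.03, 0.00 and -0.01 in those animals, a mean over genes that went both ways there. In bulk tissue, fewer cells of a type and less RNA per cell cannot be told apart.

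**Figure D3:**
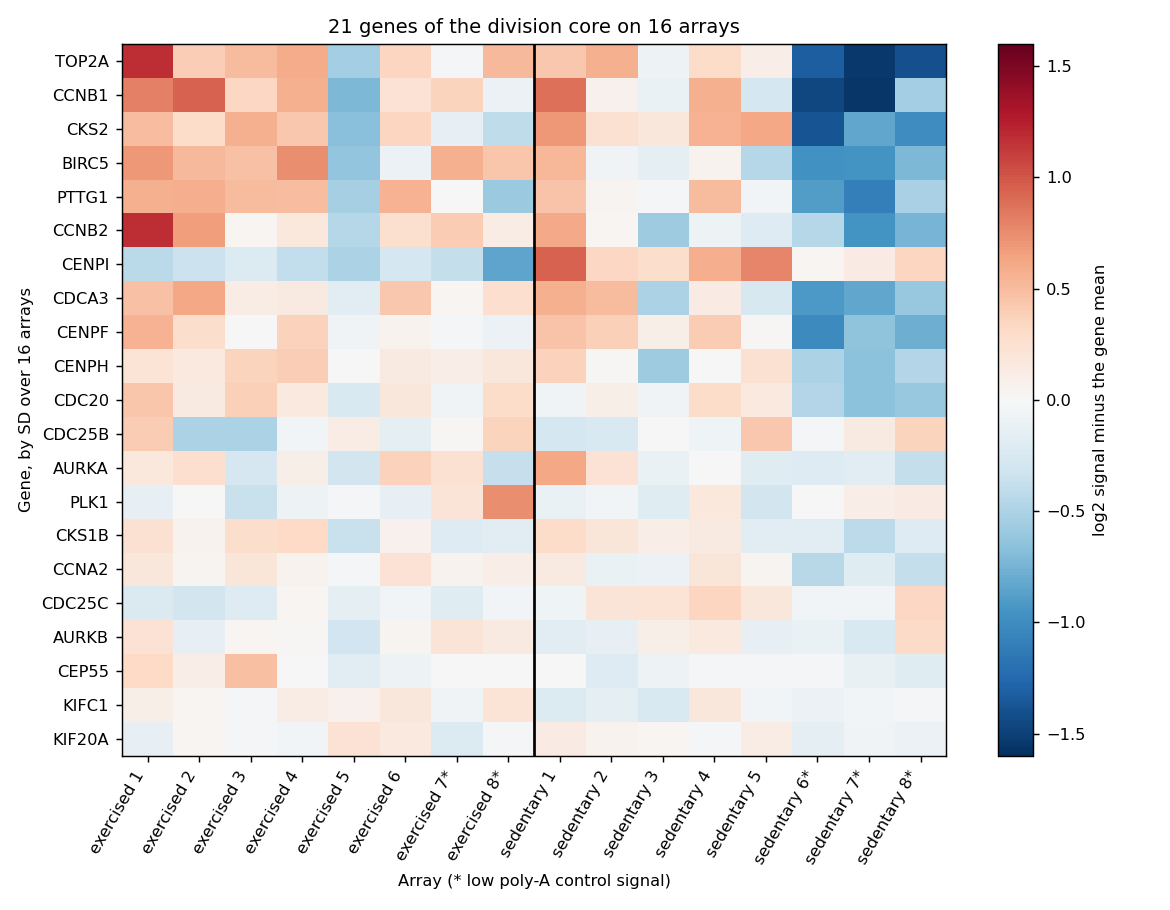
Signal minus the gene's mean (log2, colour) for the 21 division core genes (rows, by their SD over arrays) on the 16 arrays (columns; a star marks low poly-A signal). TOP2A, CKS2, BIRC5, CENPF and most other upper rows are blue in sedentary 6, 7 and 8, while CENPI is blue in the exercised columns.

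Those 3 animals are the sedentary arrays of low poly-A signal, and the training difference of the core was larger on average in the low set. Its median was 0.07 in the high and 0.42 in the low poly-A arrays. For TOP2A the difference of means was 0.15 and 1.67, for CCNB1 0.13 and 1.32, for BIRC5 0.29 and 1.39, for CENPF -0.07 and 0.75 and for CKS2 -0.21 and 0.80. The low set compares 2 exercised castrated males with 2 sedentary castrated males and 1 sedentary female. In a limma fit of training within each set with a term for sex, chosen after the data were seen, 7 members were higher in the low set (10.8%) and 0 were lower. Of all named genes 1.62% were called in either direction there and 0.825% as higher. The 7 were TOP2A at 1.81 (SE 0.292, adjusted p = 0.00733), CDCA3 at 1.12 (adjusted p = 0.00733), CENPF at 0.85 (adjusted p = 0.0093), CCNB1 at 1.59 (adjusted p = 0.013), BIRC5 at 1.54 (adjusted p = 0.0164), CDC20 at 0.72 (adjusted p = 0.0472) and CDKN2B at 0.55 (adjusted p = 0.023). All but CDKN2B are core genes.

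The difference between the sets was itself tested, and 0 of 65 members passed, against 0% of all named genes, in limma. At an unadjusted p under 0.05, 13 of 65 members differed between the sets (20.0%), against 7.47%. CENPF came closest, with a training difference larger by 0.94 (SE 0.17) in the low set (adjusted p = 0.215), and TOP2A followed at 1.70 (SE 0.351, adjusted p = 0.454). It is therefore not shown for any single gene that the sets differ.

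Within the sedentary group, 13 members were lower in the low than in the high poly-A arrays (20.0%, against 9.47% of all named genes) and 7 were higher (10.8%, against 14.2%). The lower ones included 10 of the 21 core genes, led by TOP2A at -1.57, CKS2 at -1.46, CCNB1 at -1.20 and CENPF at -1.01. CCND2 went the other way at 1.02. Within the exercised group 3 members were higher in the low set (4.62%, against 6.72%), namely CCND2 at 0.88, PLK1 at 0.70 and CDK10 at 0.55, and 0 were lower (against 3.11%). For TOP2A that exercised difference was 0.13 and for CENPF -0.07. The sedentary comparison and the training comparison of the low set share sedentary 6, 7 and 8 and are not independent of each other.

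**Figure D4:**
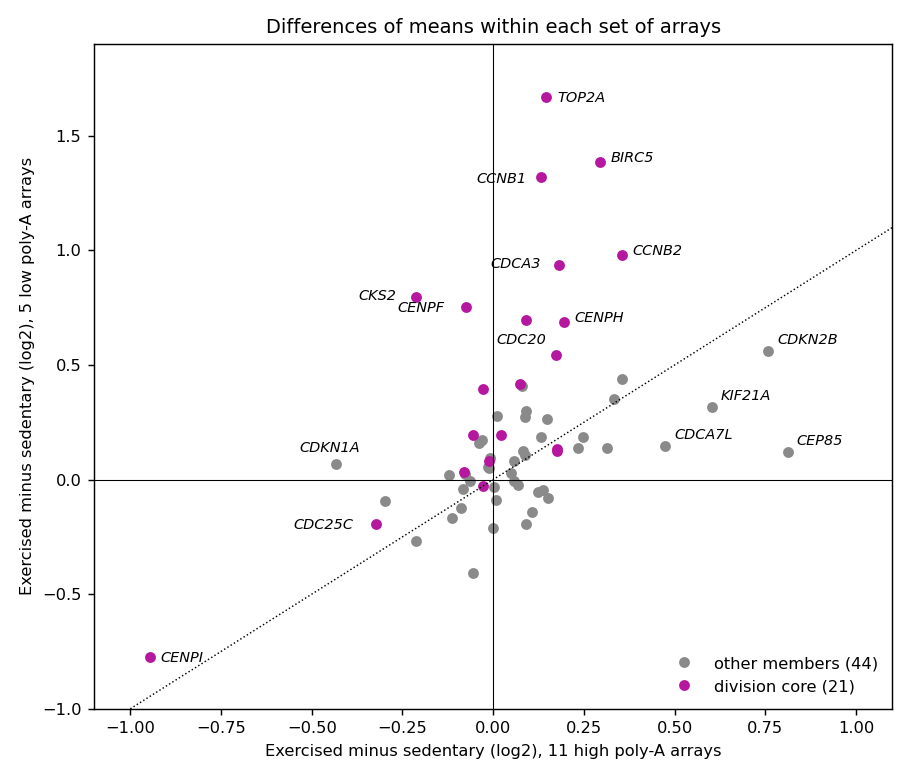
Difference of means between exercised and sedentary animals (log2) in the 11 high poly-A arrays (horizontal axis) against the 5 low poly-A arrays (vertical axis), 1 point per member, with division core genes in purple and the dotted line marking equal differences. TOP2A, BIRC5 and CCNB1 stand far above the line at 1.67, 1.39 and 1.32 in the low set, whereas CENPI and CDKN2B lie near it.

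With the array set as a block, 14 members passed (21.5%, against 14.8% of all named genes). The 11 higher were 16.9%, against 7.60%, and the 3 lower 4.62%, against 7.16%. The 7 calls of the unblocked fit were all kept, and CDC23, CDCA3, CDCA7L, CDK11B, CDKN3 and CENPH were added as higher and KIF2A as lower. In the 11 high poly-A arrays alone 8 members passed (12.3%, against 8.39%), 5 higher (7.69%, against 4.49%) and 3 lower (4.62%, against 3.90%). There BIRC5 was not called (0.25, adjusted p = 0.507), and CDK11B and KIF2A were. Leaving out only sedentary 6, 7 and 8 gave the same 8 calls (12.3%, against 10.8%). The core median was then 0.07, with TOP2A at 0.15, CCNB1 at 0.15 and CENPF at -0.10. CDKN2B, CENPI, CDK7, CEP85, CDC25C and KIF21A kept their direction and their call in each of these fits.

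The sexes were compared over both training groups. No member passed between castrated males and females in limma (0 of 65, against 0.0736% of all named genes), while 15 had an unadjusted p under 0.05 (23.1%, against 10.4%). Castrated males were lower than females for 41 of 65 members (63.1%, against 45.9%) and for 18 of 21 core genes, a description without a test. The smallest p belonged to CDCA3, at 5.38 in females and 4.81 in castrated males (difference -0.57, adjusted p = 0.521). CCNB1 was 6.88 in females and 6.00 in castrated males, PTTG1 7.83 and 7.16, and AURKA 5.65 and 5.30. Of the 5 low poly-A arrays 4 came from castrated males, and with the array set as a block 0 members passed for sex. Without sedentary 8, the only female of the low set, CDCA3 passed for sex. In that fit every low poly-A array came from a castrated male and no term for array set was used. The parts of sex and array set in that call cannot be told apart.

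The training difference was also compared between the sexes. In limma 0 of 65 members passed for training by sex, against 0% of all named genes, and 1 had an unadjusted p under 0.05 (1.54%, against 2.47%). That member was CDK2AP2, with a training difference of 0.27 in females and -0.20 in castrated males. For CDKN2B the difference was 0.75 in females and 0.63 in castrated males, and for CENPI -0.91 and -0.79. Neither passed for training by sex, with the female minus the male difference at 0.12 and -0.12.

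Genes outside the name rule that work with these proteins were read from lists. Like the members, these lists were chosen with earlier results of these data known. Of 16 measured DNA synthesis genes 6 were higher and 1 was lower (43.8%, against 10.0% of all named genes), with a median of 0.25. The origin protein ORC1 rose by 0.83 (adjusted p = 3.01e-05), the helicase subunit MCM3 by 0.57, the clamp-associated factor PCLAF by 1.06 (a second probe set gave -0.04, adjusted p = 0.773) and the flap nuclease FEN1 by 0.38, although a second FEN1 probe set gave -0.44 (adjusted p = 0.00946). MCM5 and RFC3 rose by 0.42 and 0.40, and of the other MCM5 probe sets one gave 0.42 and one 0.04 (adjusted p = 0.796). The second RFC3 probe set gave 0.21 (adjusted p = 0.401). MCM2 fell by 0.35, while its other probe sets gave 0.21 (limma unadjusted p = 0.039) and 0.07 (limma unadjusted p = 0.327). Of 21 kinetochore and checkpoint genes 3 passed (14.3%, against the same 10.0%), with a median of 0.11. SKA1 and DLGAP5, which bind spindle microtubules, rose by 0.50 and 0.75. PMF1 of the outer kinetochore fell by 0.18, and its second probe set gave 0.02 (adjusted p = 0.925). Of 15 genes of the RB-E2F gate and DNA damage checkpoint 2 passed (13.3%). The checkpoint kinase CHEK1 rose by 0.37, with 0.03 on a second probe set (adjusted p = 0.867), and WEE1, which restrains CDK1, fell by 0.37. The anaphase-complex subunit ANAPC4 rose by 0.30, alone among 6 such genes (16.7%), and 0 of 5 cohesin and condensin genes passed. In sedentary 6, 7 and 8 the mean deviation was -0.36 for DNA synthesis and -0.34 for kinetochore genes, beside -0.45 for the division core. The median difference of means was 0.12 in the high and 0.35 in the low poly-A arrays for DNA synthesis genes. For kinetochore genes it was 0.00 and 0.34. In the same order PCLAF differed by 0.46 and 2.03, DLGAP5 by 0.40 and 1.32, ORC1 by 0.73 and 0.98 and WEE1 by -0.54 and -0.003.

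Markers of other cell types were measured beside these genes. Of the heart muscle (8 measured), endothelial (5), fibroblast (5), mural (5), macrophage (4) and erythroid (3) markers 0 passed, where 10.0% of all named genes did. The heart muscle markers had a median level of 14.10, near the highest value of the data, 14.86, and a median SD of 0.06 over 16 arrays. Whether signals that bright could still show a difference was not tested. Among 6 T and NK cell markers CD3G and GNLY rose by 0.56 and 0.69, with a list median of 0.38, and of 2 B and plasma cell markers CD79B rose by 0.26, while JCHAIN differed by -0.58 and did not pass (adjusted p = 0.39), with a list median of -0.16. The mean T and NK marker signal ran from 6.44 to 7.19 in exercised and from 5.57 to 6.77 in sedentary animals. Its mean deviation was -0.58 in sedentary 6, 7 and 8 and 0.05 in sedentary 1 to 5, so these markers were low in the animals in which the division core was low. Other lists were lower there too. The same values were -0.29 and 0.18 for macrophage, -0.26 and 0.13 for erythroid, -0.16 and 0.18 for fibroblast, -0.14 and 0.21 for B and plasma cell and -0.10 and 0.08 for endothelial markers. For mural markers they were -0.03 and 0.06, and for heart muscle markers 0.00 and -0.05. The part of these cell types in the division gene values was not tested.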

How the data were processed

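Per the labels' protocols, biotinylated cRNA was made from ventricular total RNA and read on Affymetrix porcine arrays of 1 channel. The values are the log2 signals per probe set as the authors deposited them (24123 probe sets, 2.87 to 14.86). How they were summarised and normalized is not stated by any label or header used. All arrays had the same median, 6.24, so nothing was normalized further. After 188 controls were left out, 23935 probe sets were fitted with limma 3.58.1 in R 4.3.3, with a mean for each combination of training and sex (12 residual and 3.50 prior degrees of freedom). Every adjusted p is limma's, from two-sided tests adjusted by Benjamini-Hochberg over the whole table, with a threshold of 0.05. Symbols are those of the platform table and may be outdated: 10110 probe sets carried 1 symbol, 157 several and 13668 none. Of the 65 members, 64 matched the RefSeq table of Sscrofa11.1 by Entrez identifier. Probe sets with several symbols were not used.

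The array sets were read from 42 poly-A control probe sets. Members, lists, tests and the naming rule were chosen with earlier results of these data known. That rule names every called member, a list of 41 division genes (24 measured), the 4 smallest p for sex and for training by sex, the 5 brightest members and up to 4 genes per role with the largest difference. Other members are named for completeness. The fit was tested on simulated data. Alternatives were quantile normalization, filters at the 40th and 60th percentiles of level, the array set as a block or only the larger set, a replicate block, a trended robust eBayes, no sex term, the mean of a gene's probe sets, an adjusted p of 0.1, and leaving out each array. Figures were drawn with matplotlib 3.10.9.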

Additional observations from a re-analysis of the deposited data

Results flagged for a closer look

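In 4 of 108 groups of 8 arrays (54 named members in 2 training groups), 1 array lay far from the rest of its group by Dixon's criterion, and chance gives about 1 in 20 such groups. CENPI was 4.50 in exercised 8, with the other exercised arrays at 4.84 to 5.12. KIF5C was 4.05 in the same animal, with the others at 4.40 to 4.70. CDK2AP2 was 7.71 in exercised 5, with the others at 7.90 to 8.07. CEPT1 was 6.72 in sedentary 1, with the other sedentary arrays at 5.09 to 5.77.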

How the results depend on the processing

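Quantile normalization left the 7 calls as they were. All arrays already shared a median of 6.24 as deposited, so this setting could change little and is a weak check. Testing only probe sets above the 40th percentile of level, which tests 53 members, left 2 higher and 0 lower. Of all named genes tested there, 3.65% were called in either direction, against 10.0% without the filter. Above the 60th percentile, with 36 members, 0 were higher and 0 lower, and 0.715% of the named genes tested were called. CDKN2B, CENPI, CDC25C and KIF21A were not tested above the 40th percentile, nor BIRC5 and CDK7 above the 60th. BIRC5 was tested above the 40th and CEP85 above the 60th, and both lost their call at an unchanged difference of 0.67 (adjusted p = 0.0849) and 0.57 (adjusted p = 0.0972). The number of higher members was 11 with the array set as a block, 11 at an adjusted p of 0.1 and 8 with the replicate block. In either direction these settings called 14, 13 and 10 of the 65 members. Of all named genes they called 14.8%, 15.5% and 11.8%. An adjusted p of 0.1 only loosened the threshold, and the cause of the other changes was not tested. The replicate block added CCNB2, CDCA7L and CDKN3. Same-numbered animals correlated in their deviations at -0.03 to 0.39, above 0.1 in 5 of 8 pairs. Numbers 1 to 5 were high and numbers 7 and 8 low poly-A arrays in both groups. For those numbers a shared array set and a pairing of animals therefore cannot be told apart. Number 6 joined a high exercised and a low sedentary array, and its correlation was 0.23. Whether the animals were paired was not tested. Outside the replicate block, the fits did not pair the animals. Leaving out 1 array gave 3 to 7 higher members and 1 to 3 lower members. In those fits 7.73% to 9.66% of all named genes were called in either direction. They gave 0 to 1 members called for sex, 0 for training by sex, and a division core median of 0.15 to 0.24. The lowest counts of higher members came without exercised 1, 2, 3 or 8 or sedentary 6, and the lowest counts of lower members without exercised 1 or 2 or sedentary 3 or 4. The core median was 0.06 in the 11 high poly-A arrays and 0.15 to 0.27 in the other alternatives listed at the start. The trended robust fit added CCNB2 and CDCA3, the mean of probe sets added CDC23, and without the sex term BIRC5 and KIF21A were lost and CDC23 and CDCA7L gained. No direction of a called member reversed in any of these alternatives. The files used give no measure of signal over background, so its part in the dim members was not tested.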
